A study of Mus musculus with 73 samples.

Results

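The genes described here are 7 members of the mitogen-activated protein kinase network, chosen by name out of 55291 gene rows: the 4 RSK kinase genes Rps6ka1, Rps6ka2, Rps6ka3 and Rps6ka6, the ERK kinase gene Mapk3, the kinase gene Map4k4 and the adaptor gene Shc2. Rps6ka2, Map4k4 and Shc2 were chosen because their levels ran against Slc26a5, which encodes prestin, the membrane motor by which outer hair cells change length, and the others as relatives and pathway partners for comparison. Their correlations with Slc26a5 are therefore descriptions and support nothing further. Each was measured in the same 73 single cells, picked by hand from mouse cochleae at postnatal day 14 and labelled as inner hair cells lacking Casz1, a zinc-finger transcription factor. The mice were Casz1flox/flox with Atoh1Cre/+, so that Cre acted in cells that express Atoh1, a gene of developing hair cells. They carried Rosa26-CAG-Loxp-stop-Loxp-3xGFP(Ai47) on one allele, with Rosa26-CAG-Frt-stop-Frt-tdTomato opposite it, and Fgf8-Flpo/+, which turns on tdTomato in cells that express the inner hair cell gene Fgf8. Cells with both colours were picked. All belong to 1 group. No animal is named for any cell, so the group counts as 1 sample without replicates. No test between groups was made, wild-type cells were not analysed here, and nothing below says what the loss of Casz1 changed.

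RSK kinases stand at the end of the pathway that runs from receptor tyrosine kinases through Shc and Grb2 adaptors, Sos, Ras, Raf and MEK to the ERK kinases, among them ERK1 (Mapk3). ERK docks on RSK and phosphorylates it, the kinase PDK1 (Pdpk1) completes the activation, and RSK then phosphorylates proteins such as ribosomal protein S6, GSK3 beta, tuberin and CREB. Map4k4 belongs to another branch, the Ste20-type kinases, which feed the JNK pathway and act on the cytoskeleton. JNK signalling is known in the cochlea for its part in hair cell death after injury. The kinases of this pathway are controlled largely by phosphorylation, which transcript levels do not measure.

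Total counts per cell ranged from 11027945 to 37183702 (median 17333640), so 1 count stands for 0.0269 to 0.0907 CPM (each count divided by the total of its library, times 1000000). Detection in a cell means 10 CPM or more, or 110 to 372 counts. Shares carry exact 95% Clopper-Pearson intervals over cells, which cover counting error only. A level of 0 in a single cell can be a transcript that was not captured. By markers the cells were hair cells, with a median of 13 of 16 general hair cell genes detected per cell. Genes of both hair cell kinds were present, at a median of 9 of 12 inner and 8 of 14 outer hair cell genes. Slc26a5 was detected in 51 of the 73 cells, from 0 through a median of 73.1 to 1230 CPM. Casz1 itself was detected in 55 of 73 cells, which does not check the deletion because the deleted exons are not stated in the labels.

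Rps6ka2 was the RSK gene most of these cells carried. It encodes RSK3, and its gene body spans bases 7170115 to 7303315 of chromosome 17 (mm10, plus strand). Its level ran from 0 CPM through a median of 191 CPM to 995 CPM, with quartiles of 34.9 and 411 CPM. Detection reached 63 of 73 cells, or 86.3% with an interval of 76.2 to 93.2, while 2 cells were without a read. The cells thus spread over the whole range from absent to abundant, and the standard deviation over cells (238 CPM) was about as large as the mean (248 CPM).

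The other RSK genes were patchy or rare. Rps6ka3, which encodes RSK2 and lies on chromosome X from 159210307 to 159368244, was detected in 36 cells (49.3%, interval 37.4 to 61.3). Its level ran from 0 through a median of 8.56 to 232 CPM, and 22 cells had no read. Rps6ka6, which encodes RSK4 and also lies on chromosome X (111388192 to 111537959), was detected in 25 cells (34.2%, interval 23.5 to 46.3), from 0 through a median of 0.129 to 242 CPM. Cells near 0 and cells above 100 CPM stood side by side for both genes.

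Rps6ka1, which encodes RSK1 and lies on chromosome 4 from 133847290 to 133887797, was close to absent. Only 3 cells passed 10 CPM (4.11%, interval 0.856 to 11.5), and in 69 of 73 it had no read at all. The 3 cells held 80.8, 35.4 and 26.7 CPM, and another cell had 1 read. Summed over 14 immune cell markers, 2 of the 3 cells held under 1 CPM (0.0643 and 0 CPM) and the one with 26.7 CPM of Rps6ka1 held 192 CPM. All 3 were among the 27 cells with a marker of another cell type at 50 CPM that fewer than 10 cells had detected, and Rps6ka1 was detected in 0% of the other 46 cells. With a mean of 1.96 CPM, Rps6ka1 was the only one of the 7 genes under the mean of 10 CPM required for a correlation, and none is given for it.

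At 10 CPM, most cells held 1 or 2 RSK genes at a time. Of 73 cells, 32 had 2 RSK genes detected, 24 had 1, 13 had 3, 4 had none and 0 had all 4. Rps6ka2 was the single RSK gene in 18 cells, was paired with Rps6ka3 alone in 18 and with Rps6ka6 alone in 13, and stood with both in 11. Of the 10 cells without Rps6ka2, 5 had Rps6ka3, 1 had Rps6ka6 and 4 had no RSK gene at 10 CPM. These combinations depend on the level asked for. Rps6ka3 was present in 69.9% of cells at 1 count or more and in 19.2% at 50 CPM, Rps6ka6 in 57.5% and 20.5%, and Rps6ka2 in 97.3% and 72.6%. Levels of different genes were compared per kb of annotated exon, since long transcripts collect more reads in full-length libraries. On that scale Rps6ka2 was the highest RSK gene in 53 of the 71 cells with any RSK read, Rps6ka6 in 9, Rps6ka3 in 8 and Rps6ka1 in 1. Of the 22 cells with Slc26a5 under 10 CPM, Rps6ka2 was the highest in 21. Of the 32 cells at 100 CPM or more it was the highest in 17, Rps6ka3 in 6, Rps6ka6 in 6 and Rps6ka1 in 1.

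**Figure D1:**
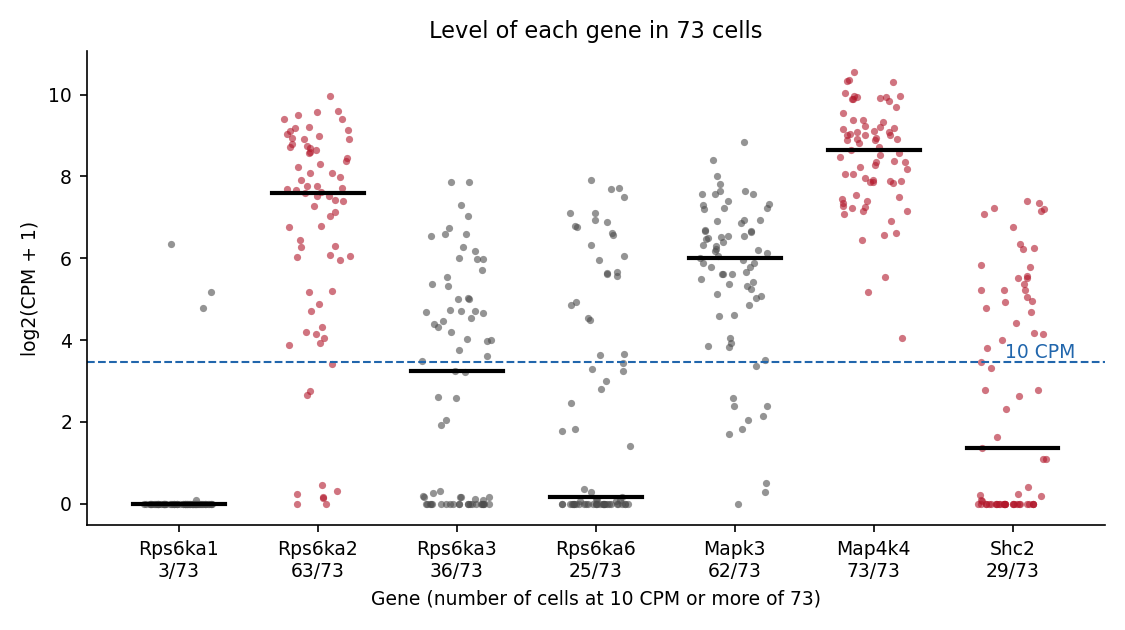
Level of each gene in each of the 73 cells as log2(CPM + 1), with 1 point per cell, spread sideways only for legibility, and a black bar at the median. Red marks the 3 genes chosen for running against Slc26a5, and the dashed line marks 10 CPM. Map4k4 is above the line in all 73 cells, while Rps6ka3, Rps6ka6 and Shc2 have many cells at 0.

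Map4k4 was the most regular of the 7 genes. The gene spans bases 39900913 to 40026310 of chromosome 1 (plus strand). Its level ran from 15.6 CPM through a median of 397 CPM to 1490 CPM, and it was detected in all 73 cells (100%, interval 95.1 to 100). The lowest and the highest cell thus differed widely, although no cell lacked the transcript.

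Shc2, an adaptor of the Shc family that passes signals from receptor tyrosine kinases to Grb2, was present in fewer cells. The gene spans bases 79618051 to 79637918 of chromosome 10 (minus strand). It was detected in 29 cells (39.7%, interval 28.5 to 51.9), from 0 through a median of 1.56 to 169 CPM, and 28 cells had no read. The share of cells depended on the level asked for: 61.6% of cells held 1 count or more, 53.4% held 1 CPM and 16.4% held 50 CPM. All 29 of these cells also had Rps6ka2, which 63 of the 73 cells had. The start of Shc2 overlaps Gm47163, a non-coding RNA gene on the opposite strand, over 63 of the 5426 exonic bases of Shc2. No source says that strand was used in counting, so reads from that stretch could belong to either gene. Gm47163 was detected in 23 cells (maximum 185 CPM), with a rank correlation of 0.46 with Shc2 and -0.47 with Slc26a5.

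Mapk3 was detected in 62 cells (84.9%, interval 74.6 to 92.2). The gene spans bases 126759601 to 126765819 of chromosome 7 (plus strand). Its level ran from 0 through a median of 62.8 to 454 CPM. In 1 cell it had no read. Per kb of exon the order of the mean levels was Map4k4 (49.9 CPM per kb), Mapk3 (37.1), Rps6ka2 (24.9), Rps6ka6 (6.36), Shc2 (4.82), Rps6ka3 (3.43) and Rps6ka1 (0.46). The spread between cells was wide compared with these steps. The quartiles were 23.8 to 62.6 CPM per kb for Map4k4, 12.5 to 51.4 for Mapk3 and 3.5 to 41.2 for Rps6ka2. Each neighbouring pair among these 3 genes overlapped in its quartiles, as did Rps6ka6 (0 to 9.31), Shc2 (0 to 6.67) and Rps6ka3 (0 to 3.72).

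The upstream regions of Rps6ka2 and Shc2 are shown because they are the RSK and adaptor genes that ran with each other and against Slc26a5 in the values that follow. RefSeq start regions (build GRCm38.p6) matched 4 of the 7 genes, and those of Mapk3, Map4k4 and Rps6ka3 were not matched. The 250 bases before the start are given 5′ to 3′ on the gene's own strand, from chr17:7169865-7170114 on the plus strand for Rps6ka2 and from chr10:79637919-79638168 on the minus strand for Shc2. The whole Shc2 window also lies within the exon of Gm47163, which spans bases 79637856 to 79639520 on the opposite strand. Capitals mark GC boxes (GGGCGG or its reverse complement) and CCAAT boxes (CCAAT or its reverse complement).
Rps6ka2: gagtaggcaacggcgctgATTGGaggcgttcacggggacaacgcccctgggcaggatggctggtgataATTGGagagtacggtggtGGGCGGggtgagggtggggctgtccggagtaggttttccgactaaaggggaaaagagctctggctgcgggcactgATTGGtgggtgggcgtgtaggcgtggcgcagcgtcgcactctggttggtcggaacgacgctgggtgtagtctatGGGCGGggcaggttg
Shc2: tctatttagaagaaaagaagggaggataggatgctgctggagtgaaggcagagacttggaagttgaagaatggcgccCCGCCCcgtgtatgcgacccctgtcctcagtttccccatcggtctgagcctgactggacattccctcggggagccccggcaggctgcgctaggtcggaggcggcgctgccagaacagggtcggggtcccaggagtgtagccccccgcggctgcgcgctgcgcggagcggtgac
Rps6ka2 held 2 GC boxes and 3 CCAAT boxes, and Shc2 held 1 GC box and no CCAAT box. Of 32851 windows of this length, 32.7% held a GC box and 33.8% a CCAAT box. The other motifs searched on both strands were not found in either window. They were the ETS core CCGGAA (12% of all windows), the cyclic AMP response element TGACGTCA (1.55%), the AP-1 site TGANTCA (6.75%), the T-box site GGTGTGA (3.33%) and the GATA site AGATAA (9.99%). The GC and CCAAT motifs do not overlap in these windows. The GC content was 63.2% for Rps6ka2 and 64% for Shc2, against a median of 52.4% over all windows.

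Rps6ka2 was lower in cells with more Slc26a5. In the 22 cells with Slc26a5 under 10 CPM, Rps6ka2 ran from 66.5 through a median of 486 to 995 CPM. In the 19 cells with 10 to 100 CPM of Slc26a5 it ran from 0.236 through a median of 203 to 679 CPM. In the 32 cells at 100 CPM or more it ran from 0 through a median of 30.3 to 678 CPM. The ranges overlapped. Rps6ka2 was under 10 CPM in 0, 1 and 9 cells of these ranges, so 9 of the 10 cells under that level were high in Slc26a5. The Spearman rank correlation over the 73 cells was -0.74. These ranges of Slc26a5 are not groups of the study.

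Map4k4 followed the same order without being lost. Its medians were 707, 521 and 233 CPM in cells with Slc26a5 under 10, from 10 to 100 and at 100 CPM or more, with ranges of 291 to 1490, 134 to 1310 and 15.6 to 978 CPM. It was above 10 CPM in every cell of each range. Its rank correlation with Slc26a5 was -0.64.

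Shc2 was found in fewer cells where Slc26a5 was higher. It was detected in 15 of 22 cells with Slc26a5 under 10 CPM, in 9 of 19 cells at 10 to 100 CPM and in 5 of 32 cells at 100 CPM or more. No Shc2 read at all was found in 2, 4 and 22 cells of these ranges. The highest Shc2 level, 169 CPM, was nevertheless in a cell with Slc26a5 at 100 CPM or more, so the separation was not complete. The rank correlation was -0.64.

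The relatives stood closer to 0. Rps6ka3 stood at -0.23, with 15 of 22, 11 of 19 and 10 of 32 cells detected in the same order of ranges. Rps6ka6 stood at -0.18, with 10, 6 and 9 cells detected. Mapk3 stood at -0.09, with medians of 76.6, 71.6 and 57.7 CPM. For Rps6ka3 and Rps6ka6, which were at 0 in 22 and 31 cells, such values are weak correlations in sparse counts. Of the 6 genes compared, 3 were at -0.5 or lower, against 0.87% of all 8618 genes above the 10 CPM mean, these 6 included (1.35% were at 0.5 or higher). At 0.4 in size the shares of all genes were 2.53% negative and 2.91% positive. The 3 were picked on this measure, so nothing is read from that count.

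**Figure D2:**
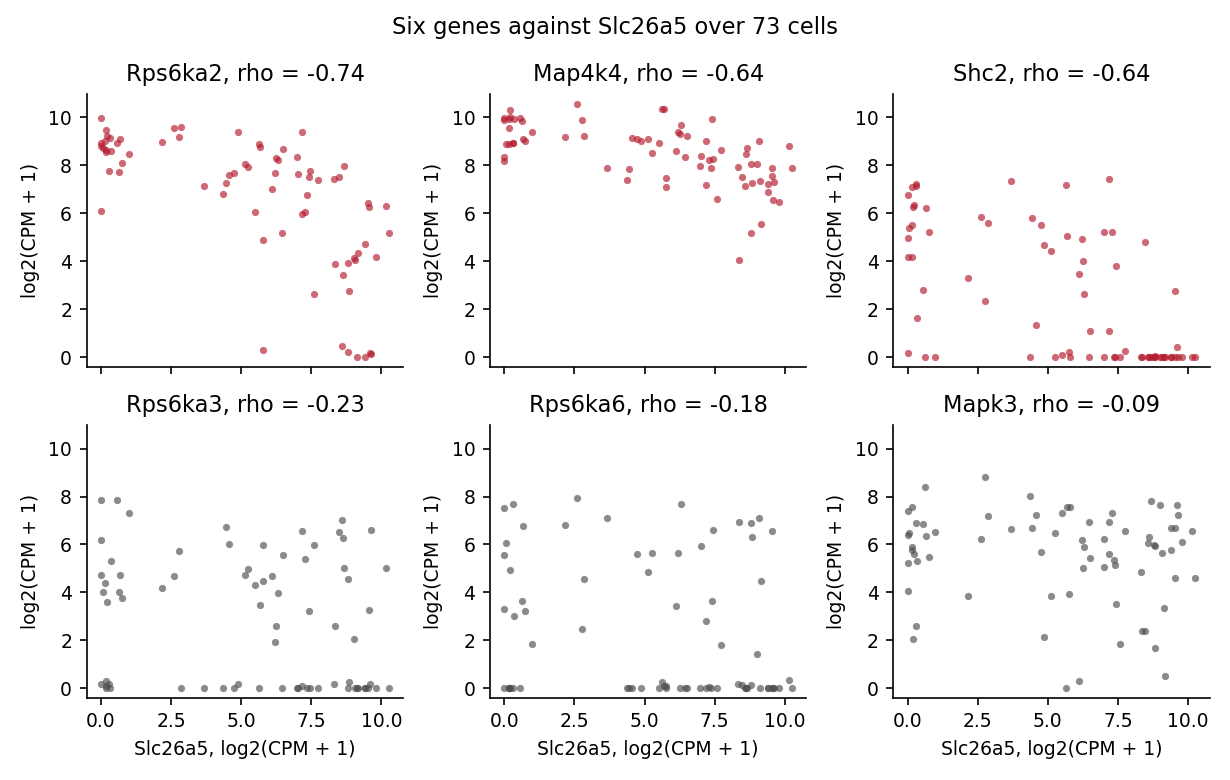
Level of 6 genes (vertical axes, log2(CPM + 1)) against Slc26a5 (horizontal axis, log2(CPM + 1)), with 1 point per cell for 73 cells and the Spearman rank correlation above each panel. Rps6ka2, Map4k4 and Shc2 (red) are lower where Slc26a5 is high, at -0.74, -0.64 and -0.64, while Rps6ka3, Rps6ka6 and Mapk3 (grey) stand at -0.23, -0.18 and -0.09.

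The 3 genes that ran against Slc26a5 also ran together, to different degrees. All 3 were chosen for running against Slc26a5, so positive values among them are not separate evidence. Rps6ka2 and Map4k4 had a rank correlation of 0.80, and each was the gene closest to the other among all 8618 genes compared with it. Rps6ka2 and Shc2 had 0.67, and Map4k4 and Shc2 0.49. Of the 15 pairs among the 6 genes, 2 reached 0.5, both among the 3 chosen genes, so nothing is read from that count. Of all 8618 genes, 0.847% reached 0.5 with Rps6ka2, 0.801% with Map4k4 and 0.395% with Shc2. With the ranks corrected for Slc26a5, the value for Rps6ka2 and Map4k4 was 0.64, that for Rps6ka2 and Shc2 was 0.39 and that for Map4k4 and Shc2 was 0.13. With its relatives Rps6ka2 stood at 0.06 (Rps6ka3) and 0.21 (Rps6ka6), and with Mapk3 at -0.02. The correction for Slc26a5 was added after the data were seen.

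**Figure D3:**
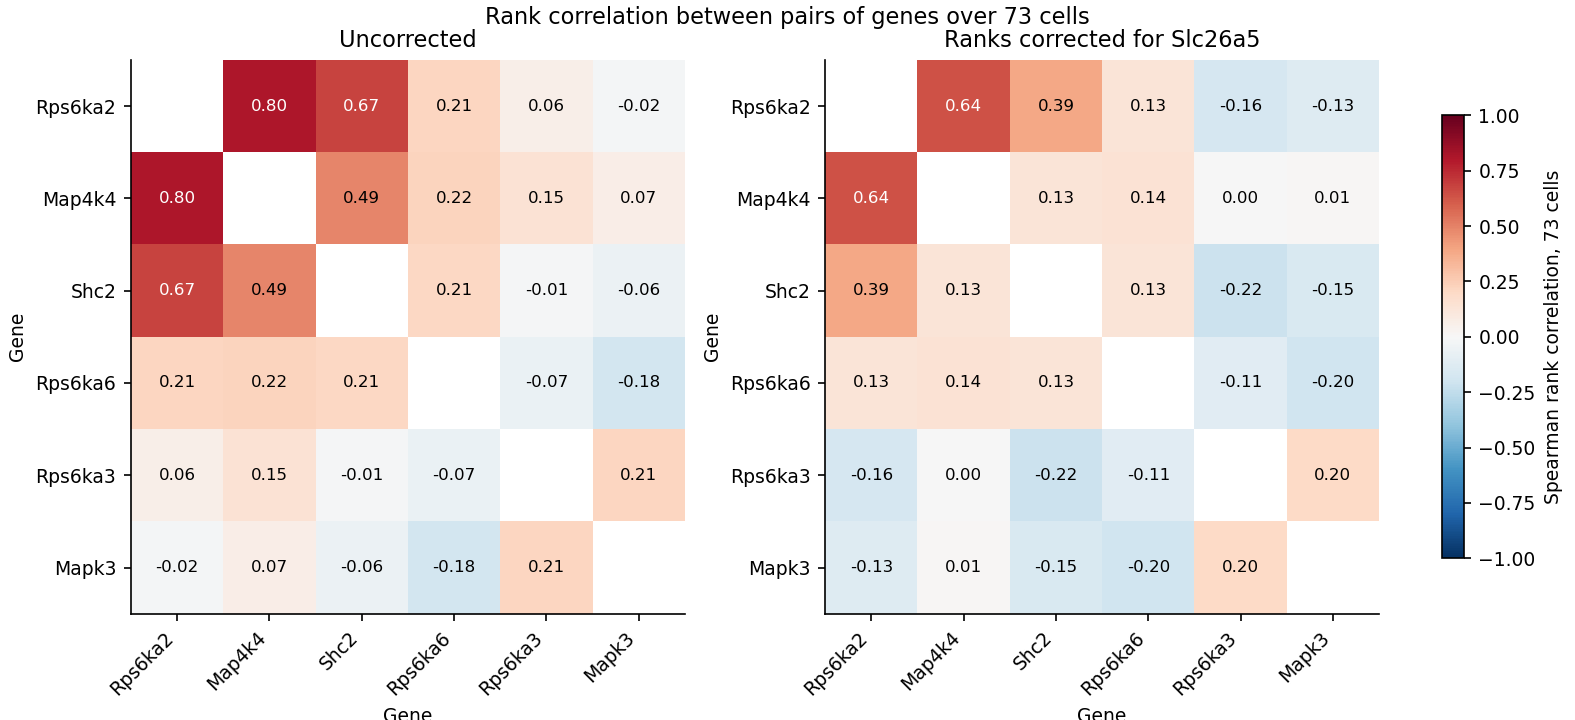
Spearman rank correlation between each pair of 6 genes over 73 cells (colour scale from -1 to 1, value printed in each square), uncorrected on the left and with ranks corrected for Slc26a5 on the right. Rps6ka2 and Map4k4 keep the highest value in both panels, 0.80 and 0.64.

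The same 3 genes were positively correlated with inner hair cell transcripts, to very different degrees. Rps6ka2 had a rank correlation of 0.67 with the calcium pump gene Atp2a3, 0.71 with Dnajc5b, 0.59 with the transcription factor Tbx2 and 0.55 with the calcium buffer Calb2. Map4k4 stood at 0.58, 0.75, 0.59 and 0.52 with these 4 genes, and Shc2 at 0.63, 0.35, 0.39 and 0.45. With Slc17a8, the glutamate transporter of synaptic vesicles, the values were 0.43, 0.35 and 0.43. Lower values were found with Gata3, a transcription factor, at 0.40, 0.37 and 0.26, and with Otof, needed for vesicle release, at 0.32, 0.32 and 0.24. The mean of the inner hair cell list stood at 0.48, 0.47 and 0.28. The mean of the outer hair cell list without Slc26a5 stood at -0.44, -0.46 and -0.43 with Rps6ka2, Map4k4 and Shc2. Among its genes, Ocm stood at -0.46, -0.47 and -0.43, Sri at -0.64, -0.62 and -0.56, and Lbh at -0.38, -0.32 and -0.31. The other genes of both lists are not given singly here. Mapk3 stood between -0.06 and 0.22 with the inner and outer hair cell genes named here. With Casz1 reads the values were 0.14 for Rps6ka2, 0.13 for Map4k4 and 0.05 for Shc2. Since these hair cell genes themselves vary with Slc26a5, these values are not separate evidence.

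Properties of the libraries moved with the same genes. The mitochondrial share of counts had a rank correlation of 0.49 with Rps6ka2, 0.52 with Map4k4 and 0.35 with Shc2, and -0.49 with Slc26a5. Its median was 8.8%, 6.06% and 5.08% in cells with Slc26a5 under 10, from 10 to 100 and at 100 CPM or more. The ribosomal protein share stood at -0.57, -0.52 and -0.58 with the 3 genes and at 0.67 with Slc26a5. Total counts stood at -0.27, -0.27 and -0.18, and the mean level of 13 immediate early and stress genes at 0.24, 0.13 and 0.26. The number of the library in the labels stood at -0.23, -0.41 and -0.27. With Slc26a5, total counts stood at 0.27, the immediate early and stress level at -0.33 and the library number at 0.31. With ranks corrected for the mitochondrial share, Rps6ka2, Map4k4 and Shc2 stood at -0.65, -0.52 and -0.58 with Slc26a5. Corrected for the ribosomal protein share, a choice made after the data were seen, they stood at -0.58, -0.46 and -0.42, so that 1 gene was left at -0.5 or lower. Corrected for total counts they stood at -0.72, -0.61 and -0.63, for the immediate early and stress level at -0.72, -0.64 and -0.61, and for library number at -0.72, -0.59 and -0.61. Corrected together for mitochondrial share, total counts and immediate early level, also added after the data were seen, they stood at -0.64, -0.53 and -0.55.

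**Figure D4:**
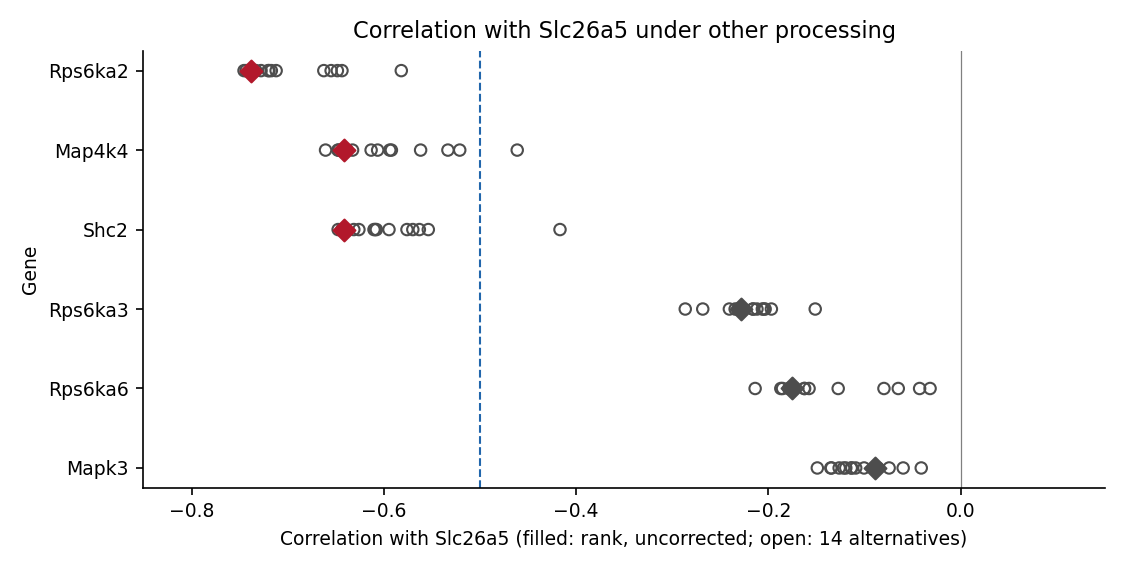
Correlation of 6 genes with Slc26a5 (horizontal axis) as reported (filled diamonds, Spearman) and under 14 alternatives of scaling, cells, measure and correction (open circles), with the threshold of -0.5 dashed. Rps6ka2 stays between -0.75 and -0.58, while Map4k4 and Shc2 each have 1 alternative above -0.5, at -0.46 and -0.42.

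Markers of other cell types were correlated with these genes in both directions. The summed level of 10 glial markers had a rank correlation of -0.54 with Rps6ka2, -0.42 with Map4k4 and -0.54 with Shc2. It ran from 0 through a median of 0.165 to 154 CPM in cells with Slc26a5 under 10 CPM, and from 0 through a median of 98.4 to 301 CPM in those at 100 CPM or more. Of the 10 markers, 8 were detected in at least 1 cell and 2 in at least 10 cells, and the myelin genes Mbp and Pmp22 were detected in none. Sox10 among them stood at -0.67 with Rps6ka2, -0.68 with Map4k4 and -0.60 with Shc2. For 12 supporting cell markers, of which 11 were detected in some cell and 3 in at least 10, the sum stood at -0.46, -0.47 and -0.40. It ran from 2570 to 7420 CPM (median 4340) under 10 CPM of Slc26a5 and from 3690 to 10300 CPM (median 6190) at 100 CPM or more, with Prox1 detected in no cell. The sums of immune markers (6 of 14 detected) stood at -0.24, -0.23 and -0.18, with Cx3cr1, Tyrobp, S100a8 and S100a9 at 0 reads in all cells. Neuron markers (7 of 10 detected) stood at -0.21, -0.30 and -0.10, mesenchyme markers (6 of 9) at -0.21, -0.23 and -0.19, and markers of the stria vascularis (4 of 7) at -0.18, -0.19 and -0.26. Endothelial markers (3 of 7) went the other way, at 0.24, 0.24 and 0.30, as did blood markers (4 of 6) at 0.26, 0.12 and 0.05. The part of these markers in the correlations was not tested. The 46 cells kept next were chosen only by markers detected in fewer than 10 cells, so more widely detected markers were not covered. In 46 cells without a rare marker of another cell type at 50 CPM, the correlations of the 3 genes with Slc26a5 were -0.66, -0.56 and -0.56. Without cells 5 and 67, which hold the highest levels of several such markers, they were -0.74, -0.65 and -0.65.

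Core genes of the ERK pathway were widely present, and none stood further from 0 than -0.29 with Slc26a5. Of the 10 genes of Ras, Raf, MEK and ERK, all were compared, 8 were detected in at least 37 cells, and 0 reached 0.5 in size. Their median was -0.04, beside -0.03 over all 8618 genes, and the lowest was Nras (-0.29). Among the Raf kinases, Araf had a median of 225 CPM and Braf 136 CPM, and among the MEK kinases Map2k2 had 151 CPM and Map2k1 36 CPM.

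Relatives of Shc2 and Map4k4 were between -0.29 and 0.01 or too low to compare. In the Shc family, Shc1 was detected in 19 cells and stood at -0.14, Shc4 was detected in 2 cells and Shc3 in 0. For Shc3 the exact interval of 0 in 73 cells reaches 4.93%. Of the 7 MAP4K genes, 6 were compared. Beside Map4k4, Map4k2 stood at -0.29, Map4k5 at -0.25, Mink1 at -0.24, Map4k3 at -0.10 and Tnik at 0.01, and Map4k1 had no read. Per kb of exon Map4k4 (mean 49.9 CPM per kb) stood above Map4k2 (6.08) and Map4k5 (5.89), the next highest. MSK and S6 kinases, the closest relatives of RSK, had 4 of 6 members compared, with a median of -0.11 and 0 at 0.5 in size. Rps6ka5 was detected in 20 cells and stood at -0.08, and Rps6ka4 was detected in 1 cell.

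Upstream of Ras, 8 of 22 receptor tyrosine kinases were compared, and 1 was at -0.5 or lower, beside 0.87% of all 8618 genes. That gene was Alk (-0.56), detected in 32 cells from 0 through a median of 0.515 to 313 CPM. Alk had rank correlations of 0.60 with Rps6ka2, 0.60 with Map4k4 and 0.50 with Shc2. Alk is named for its value with Slc26a5, on which the 3 genes were also chosen, so these are not separate evidence. Corrected for the mitochondrial share, Alk stood at -0.48 with Slc26a5. The neurotrophin receptor Ntrk2 (65 cells) and the insulin-like growth factor receptor Igf1r (64 cells) were more widely detected and stood at 0.04 and 0.06. At the other end of the list was Fgfrl1, an FGF receptor without a kinase domain, at 0.44 and 0.38 when corrected for the mitochondrial share, detected in 17 cells. Fgfr1, Fgfr2, Fgfr3 and Fgfr4 were detected in 7, 1, 3 and 3 cells, and Egfr had no read. Of 14 adaptors and Ras exchange factors, 10 were compared, with a median of -0.07 and 0 at 0.5 in size, from Crkl (-0.30) to Ptpn11 (0.27).

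Scaffolds and inhibitors were mixed. Of 11 genes listed as ERK scaffolds, 10 were compared and 1 reached 0.5. It was Pebp1 at 0.51, the Raf kinase inhibitor protein, which by its name is an inhibitor. Its levels ran from 236 through a median of 1200 to 2640 CPM, with all 73 cells detected. Corrected for the mitochondrial share it stood at 0.32. Ksr1, a scaffold for Raf and MEK, stood at 0.45 and was detected in 16 cells. Of 22 listed inhibitors of ERK and Ras, Pebp1 not among them, 7 were compared, with a median of 0.03 and 0 at 0.5 in size. Dusp6, a phosphatase of ERK that ERK signalling induces, stood at 0.31 and was detected in 27 cells. Spry1, Spry2 and Spry4, which ERK signalling also induces, were detected in 8, 4 and 0 cells.

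Downstream genes were spread on both sides of 0. Of 12 activators and substrates of RSK, 11 were compared, with a median of -0.02 and 0 at 0.5 in size. The kinase Pdpk1 stood at -0.07, Creb1 at -0.31, Tsc2 at -0.28, Gsk3b at -0.12 and Rps6 at 0.07. Of 17 ERK-induced and ETS transcription factors, 8 were compared, with a median of -0.21, between Fos (-0.46) and Junb (0.28). Egr1 had a median of 660 CPM and Etv5 was detected in 5 cells. Of 16 genes of the JNK arm, which Map4k4 can feed, 14 were compared, with a median of -0.05, from the scaffold Mapk8ip3 (-0.44) to Mapk8ip1 (0.31). For the p38 and ERK5 arms 3 of 8 were compared, with a median of -0.20, and for the other kinases activated by these pathways 2 of 5, with a median of -0.01.

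Over the 92 pathway genes compared that are not among the 7, 1 was at -0.5 or lower (1.09%) and 1 at 0.5 or higher (1.09%), beside 0.87% and 1.35% of all 8618 genes. These shares lie near those of all genes. Of the 158 listed genes, 157 are in the table and 98 passed the mean of 10 CPM, the members included.

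**Figure D5:**
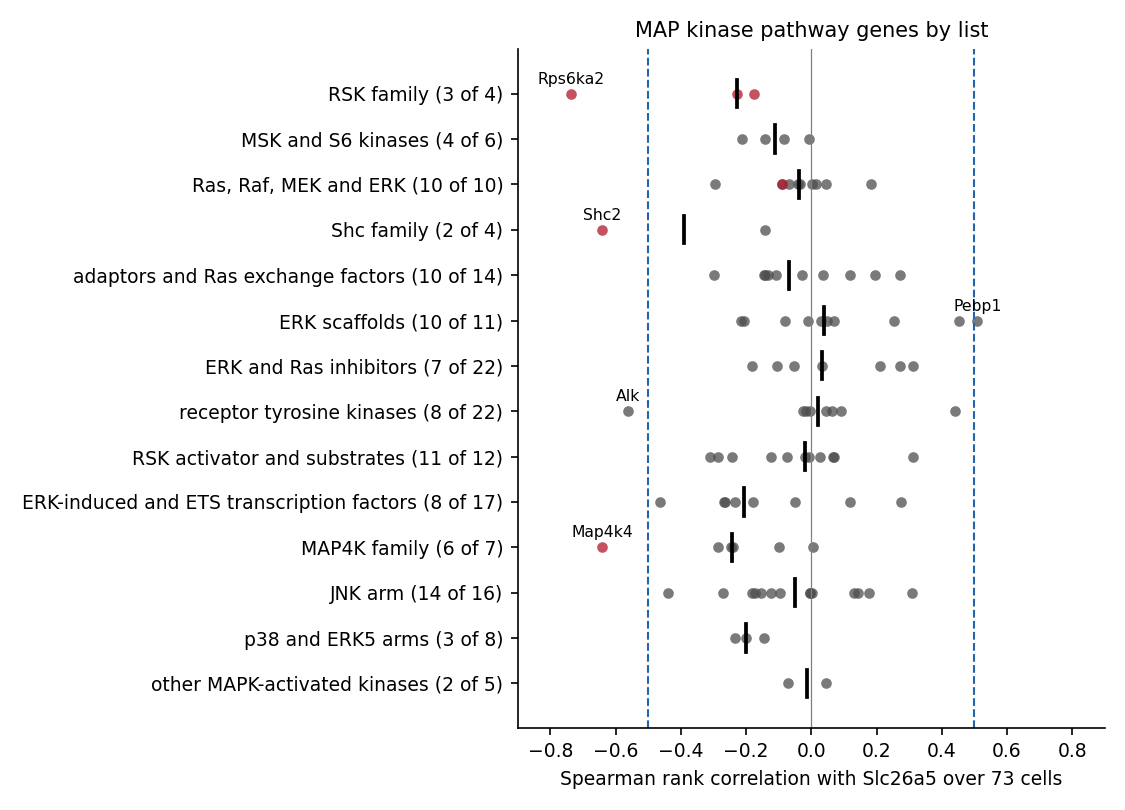
Spearman rank correlation with Slc26a5 over 73 cells (horizontal axis) for each gene of 14 lists that had a mean of 10 CPM or more, with the numbers compared and listed beside each list. Points are genes (red: the chosen genes), black bars are list medians, and dashed lines mark -0.5 and 0.5. Outside the lines are Rps6ka2, Map4k4, Shc2, Alk and, at 0.51, Pebp1.

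The genes most like each member over the 73 cells, by rank correlation, were as follows. For Rps6ka2 they were Map4k4 (0.80), Osbp2 (0.77), Tomm7 (0.74), Selenos (0.73) and Ripor3 (0.72), and the most opposed were Rab27b (-0.75), Slc26a5 (-0.74) and Sirt2 (-0.73). For Map4k4 they were Rps6ka2 (0.80), Dnajc5b (0.75), Osbp2 (0.75), Selenos (0.75) and Tomm7 (0.72), with Calb1 (-0.73), Rab27b (-0.70) and Pak3 (-0.69) at the other end. Shc2 was close to Pdcd6 (0.71), Rps6ka2 (0.67), Endod1 (0.67) and Atp2a3 (0.63), and most opposed to Sirt2 (-0.69), Far1 (-0.67) and Mthfd1l (-0.66). Osbp2, Selenos and Tomm7 stood in the first 5 of both Rps6ka2 and Map4k4. Of all genes compared, 0.847% reached 0.5 with Rps6ka2, 0.801% with Map4k4 and 0.395% with Shc2, and 1.38%, 1.22% and 0.928% reached -0.5.

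Mapk3, Rps6ka3 and Rps6ka6 had no such company. No gene of 8618 reached 0.5 in size with any of the 3 (0% in each direction). The highest value was 0.41 for Mapk3 (with Calm3, a calmodulin gene), 0.46 for Rps6ka3 (with Asb6) and 0.44 for Rps6ka6 (with Gpank1). The lowest were -0.40 for Mapk3 (Rsl1d1), -0.45 for Rps6ka3 (Arfip2) and -0.40 for Rps6ka6 (Por).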

How the data were processed

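Per the labels' protocols, a Smart-Seq HT kit gave full-length cDNA of 73 hand-picked cells, which was tagmented. The file the authors deposited holds raw counts, 55292 rows by 73 cells. Named tools, per the submitters' processing notes, were featureCounts 2.0.1, HISAT2 2.2.1 and StringTie 2.2.1, with build mm10. Their settings, and whether counting used strand, are not given in the sources used here. Counts include PCR copies, since no molecular identifiers are named. All 73 columns matched a sample title. The reporter row WPRE (0.0161% of counts) was left out of library totals.

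Counts were divided by the library total and scaled to 1000000 (CPM). Spearman correlations covered the 8619 genes whose mean reached 10 CPM, and 0.5 in size was the threshold for counts of genes. Corrections removed the covariate's ranks by regression. With 1 group and no replicates no p-value was made, and cells are not replicates. Correlations over cells share library, depth and composition. Positions and exon lengths come from GENCODE vM21 (same build). The correlation step was tested on simulated data. Members, gene lists and tests were chosen with earlier results of these data known. Named are the members, their relatives, list genes past 0.5 or among the 3 at either end of a list, moving markers, and the 5 most and 3 least alike genes of each member. Other list genes are named for their role, chosen after their values were seen. Some genes that the rule covers are not reported here. Alternatives covered scaling (scran 1.30.0, median of ratios, total without mitochondrial genes), cells left out, measure, corrections, filter and detection level. Tools were R 4.3.3, scipy 1.17.1, pandas 2.3.3, numpy 2.4.6, matplotlib 3.10.9 and Python 3.11.15.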

Additional observations from a re-analysis of the deposited data

Results flagged for a closer look

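Reads of the reporter element WPRE lie outside the gene measurements used here and were present above the limit that a count of 0 allows in all 73 cells, from 44.1 through a median of 144 to 429 CPM. Their rank correlation was 0.03 with Rps6ka2, 0.01 with Map4k4 and -0.08 with Slc26a5.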

How the results depend on the processing

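Of 200 recomputed values, 0 reversed, but many are levels, shares of cells or counts, which cannot change sign. Among the values for the main results, 8 moved and 2 became weaker. Among the values for single genes and pairs outside them, 14 moved and 1 became weaker. Rps6ka2 stayed between -0.75 and -0.58 with Slc26a5 under all 14 alternatives. The number of members at -0.5 or lower was 3 under 13 alternatives and 1 when ranks were corrected for the ribosomal protein share, where Map4k4 stood at -0.46 and Shc2 at -0.42. The ribosomal protein share itself stood at 0.67 with Slc26a5, and the cause of the loss was not tested. The number of pathway genes at 0.5 or higher was 1 as reported and 0 corrected for the mitochondrial share. It was 2 with a filter of 1 CPM, 2 with no filter and 3 at a threshold of 0.4. The number at -0.5 or lower was 4 as reported, with scran scaling, with a filter of 1 CPM and with no filter. It was 3 corrected for the mitochondrial share, and 6 genes stood at -0.4 or lower. Of the 4 as reported, 3 were members chosen for running against Slc26a5. Among the 92 other pathway genes 1 was at -0.5 or lower (1.09%), beside 0.87% of all 8618 genes. The members detected in at least 1 of every 2 cells were 3 at 10 CPM, 5 at 1 CPM and 6 with a single count. The pairs of members at 0.5 or higher, all among the 3 genes chosen for running against Slc26a5, were 2 as reported and 1 when corrected for Slc26a5. In the shallowest library 10 CPM is 110 counts. How many transcripts were captured was not measured. No paired analysis was possible because the cells form 1 group.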
